A study of Mus musculus with 8 samples.

Results

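Loss of the retinoblastoma protein pRb in mouse skin that already lacked its relative p107 was examined as 1 comparison of the series, the 2 arrays titled pRb-/-;p107-/- against the 2 arrays titled pRb+/+;p107-/-. These 4 arrays were chosen by their titles from the 8 of the series, and all 22626 probe sets that were not Affymetrix controls were described. Every array held RNA of whole skin from newborn FVB mice, pooled from 3 animals. The other 4 arrays, 2 of pRb-/-;p107+/+ skin and 2 of pRb+/+ skin, entered the fit and gave the same comparison where p107 was kept. The p107 genotype of the pRb+/+ arrays is not in their labels and was taken as wild type. Both groups of the main comparison carry the p107 deletion, so its own effect is in neither difference. How pRb was deleted, and in which cells of the skin, is not stated in the labels. The genotypes are called pRb/p107-null for pRb-/-;p107-/-, p107-null for pRb+/+;p107-/- and pRb-null for pRb-/-;p107+/+ from here on.

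The deposited value is a z-score, scaled within each probe set to mean 0 and SD 1 across the 8 arrays. All values and differences below are in these SD units. They say how far the arrays lay apart relative to that probe set's own spread and give neither an expression level nor a fold change. No difference between 2 pairs of arrays can exceed 2.65 on this scale. The presence of a tissue's markers therefore could not be checked from their levels. In whole skin, fewer cells of a type and less RNA per cell cannot be told apart.

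pRb, encoded by Rb1, and p107, encoded by Rbl1, are pocket proteins that bind E2F transcription factors and hold back genes needed for DNA replication. Phosphorylation by cyclin-dependent kinases releases E2F and lets a cell enter S phase. In the epidermis, basal keratinocytes divide, leave the cell cycle and build the spinous, granular and cornified layers, and pRb is known for its part in that exit. p107 is itself an E2F target and can take over part of the role of pRb.

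Within the main comparison, the duplicate arrays resembled each other more than the other genotype over all probe sets. Here r was 0.276 between the pRb/p107-null arrays, 0.35 between the p107-null arrays, and from -0.0433 to 0.0145 between arrays of these 2 genotypes. Of the other arrays in the fit, the pRb+/+ duplicates had r = 0.173 and the pRb-null duplicates only 0.0365. The latter lay below the r of 0.076 between pRb-null replicate 2 and pRb+/+ replicate 1. The median difference over 12393 genes, each with 1 probe set, was -0.34, and 7757 of them had a negative difference. Subtracting each array's median brought it to -0.06 and quantile normalization to -0.10, so medians of gene lists are also given relative to that of all genes. With 1 probe set a gene, 17.6% of all genes had arrays of the 2 genotypes that did not overlap and were higher in pRb/p107-null skin, and 34.1% had such arrays that were lower. The 3 beta-actin control probe sets had means of -1.003 and -1.08 in pRb/p107-null skin, against 0.05 and -0.02 in p107-null skin. The means of the 3 for Gapdh lay at 0.04 and -0.03 in pRb/p107-null skin, against 0.80 and 0.57 in p107-null skin. Transcripts of the sex chromosomes also parted the pools, whose sex the labels do not give. Xist, the RNA that silences an X chromosome in females, was lower in pRb/p107-null skin with all 3 of its probe sets. The clearest gave -1.21 and -1.39 in pRb/p107-null skin against 1.21 and 1.44 in p107-null skin (difference -2.63 ± 0.15, adjusted p = 0.0457). The other 2 had differences of -2.21 ± 0.26 and -2.33 ± 0.45 (adjusted p = 0.109 and 0.204). The Y-linked gene Eif2s3y had 0.07 and 0.30 in pRb/p107-null skin and -1.43 and -1.51 in p107-null skin (difference 1.66 ± 0.36, adjusted p = 0.237). Both p107-null arrays lay at the end of the 8 for Eif2s3y and for the clearest Xist probe set. The part of pool sex in other differences was not tested.

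With pRb lost on top of p107, 58 of 22626 probe sets passed an adjusted p of 0.05 in the linear model (0.256%). Of these, 40 were higher in pRb/p107-null skin (0.177%) and 18 lower (0.0796%). They named 52 genes, 35 higher and 17 lower. With 1 probe set a gene, as in the gene lists, 28 of all 12393 genes were called higher and 12 lower. The higher ones included 3 of the 10 listed genes of EGF receptor ligands and feedback, 3 of 26 stress and hyperproliferation genes of keratinocytes and 1 of 31 DNA synthesis genes. The lower ones included 2 of 39 genes of collagens and dermal matrix, 1 of 26 granular layer and cornified envelope genes and 1 of 25 genes of cholesterol and lipid synthesis. Of the 40 higher probe sets, 39 had both pRb/p107-null arrays as the highest of the 8, against 6.95% of all probe sets. Both p107-null arrays were the lowest of the 8 in 18 of the 40, against 4.05%. All 18 lower probe sets had the pRb/p107-null arrays at the bottom, against 11.4% of all, and 4 of them had the p107-null arrays at the top, against 8.81%. These shares partly follow from the threshold, because large differences need arrays at the ends. The calls rest on a small number of arrays: when any 1 of the 8 was left out, between 0 and 2 probe sets passed and at most 1 of the 58 was among them. With limma's moderated test and with the replicate block 0 passed, and with array medians subtracted 2 passed, of which 1 was among the 58. All 58 kept their sign under each alternative that tested them. Only quantile normalization and subtraction of array medians could have reversed a sign. The other alternatives keep the difference, or drop an array where the 2 groups did not overlap. Slc15a2 and Tyr each had another probe set of the opposite sign, and the other called genes with several probe sets had none.

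**Figure D1:**
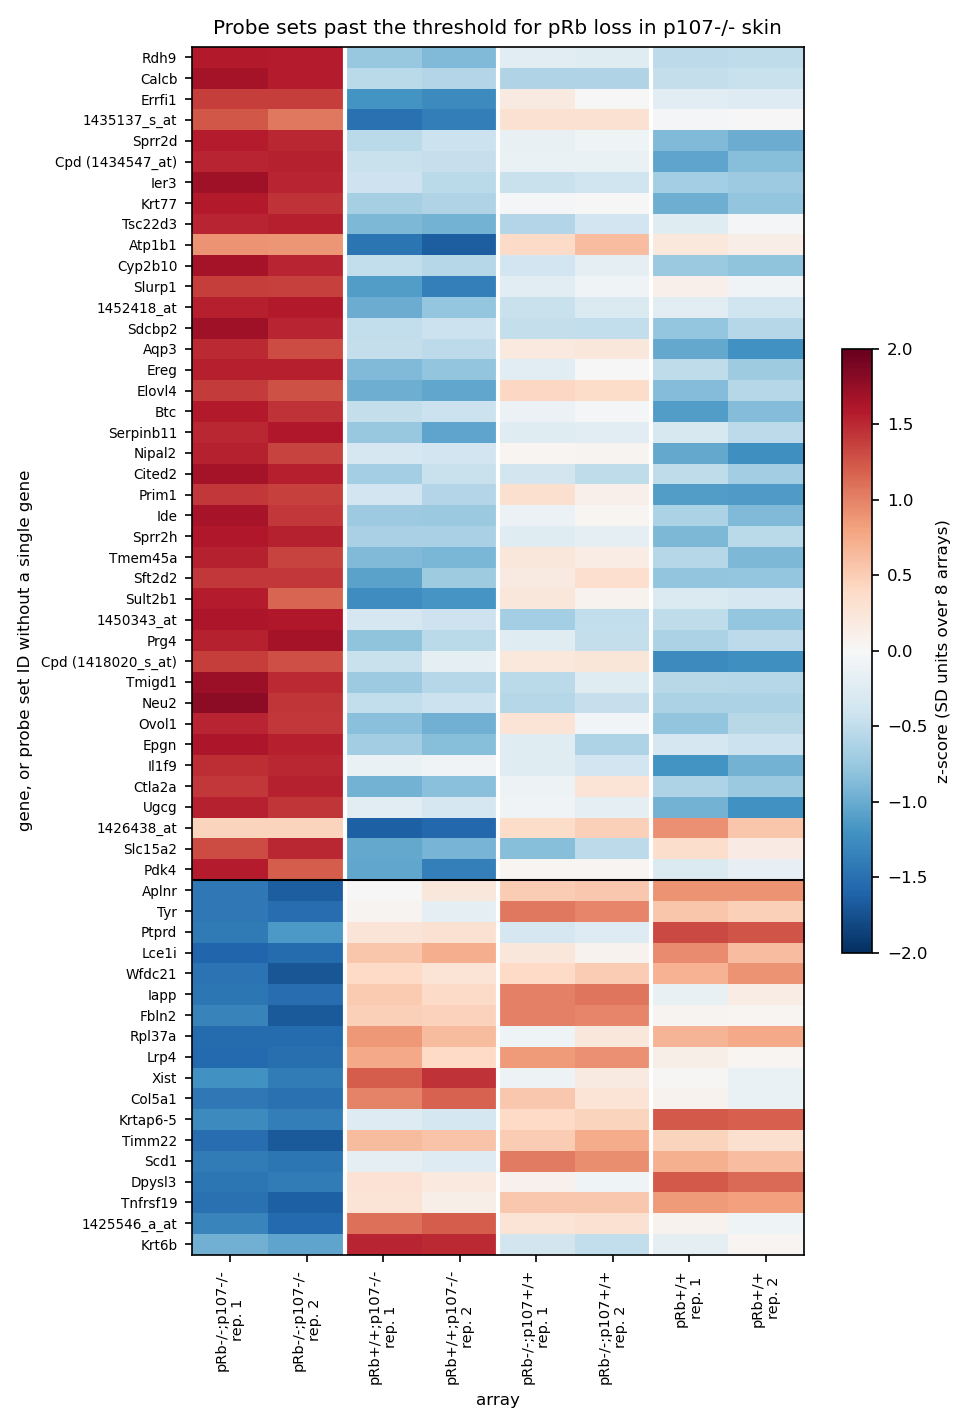
The colours give the z-score (SD units over 8 arrays, red high and blue low) of the 58 probe sets that passed the threshold, in rows, in each array, in columns grouped by genotype. The 40 probe sets above the black line are higher in pRb-/-;p107-/- than in pRb+/+;p107-/- skin and the 18 below it lower; the 2 arrays of a genotype have nearly the same colour in most rows.

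The targeted genes were read first. The Rb1 probe set had z-scores of -1.56 and -1.28 in pRb/p107-null skin, against 0.02 and 0.40 in p107-null skin. The pRb/p107-null arrays were the lowest of the 8 and did not overlap the others, with a difference of -1.63 ± 0.27 and an adjusted p of 0.17, which missed the threshold. In the p107 wild-type pair, Rb1 had -0.22 and 0.36 in pRb-null skin and 1.21 and 1.07 in pRb+/+ skin, a difference of -1.07 ± 0.27. Rbl1, deleted in both groups of the main comparison per their labels, had -0.31 and 0.31 in pRb/p107-null skin and -1.51 and -1.22 in p107-null skin with 1 probe set. The groups did not overlap and the difference was 1.37 ± 0.25 (adjusted p = 0.198). The same probe set had 1.30 and 1.14 in pRb-null skin and 0.08 and 0.21 in pRb+/+ skin, a difference of 1.07 ± 0.25. The other Rbl1 probe set also put both p107-null arrays lowest, with -0.13 and -0.20 in pRb/p107-null skin and -1.53 and -1.12 in p107-null skin (difference 1.16 ± 0.55). Whether either probe set lies in the deleted part of the gene is not known here. Rbl2, which encodes the third pocket protein p130, had differences of 0.48 ± 0.90 and 1.87 ± 0.91 with its 2 probe sets (adjusted p = 0.898 and 0.549).

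Of 7 measured E2F factors and partners, 0 passed the threshold, and 1 (14.3%, against 17.6% of all genes) had arrays of both groups apart with higher values in pRb/p107-null skin. That gene was E2f8, a repressor E2F and itself an E2F target, with 1.17 and 1.72 in pRb/p107-null skin against -1.12 and -0.74 in p107-null skin (difference 2.38 ± 0.44, adjusted p = 0.194). E2f1, the activator most often tied to pRb, had 0.27 and 1.15 in pRb/p107-null skin and 0.85 and 0.38 in p107-null skin, with overlapping arrays and a difference of 0.09 ± 0.48.

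Replication genes lay higher with pRb lost, though only Prim1 passed the threshold among 52 measured genes of licensing and DNA synthesis. Prim1, the catalytic subunit of the primase that starts each new DNA strand, had 1.42 and 1.36 in pRb/p107-null skin and -0.39 and -0.58 in p107-null skin. It rose by 1.88 ± 0.11 (SE of the linear model, 2 arrays a group here and throughout; adjusted p = 0.0444), with the pRb/p107-null arrays the highest of the 8. Of the 31 genes of DNA synthesis and nucleotide supply, 25 had a positive difference. Arrays did not overlap and were higher in pRb/p107-null skin in 19 (61.3%, against 17.6% of all genes). Their median difference was 1.23, which is 1.58 relative to all genes. Pcna, the clamp that holds DNA polymerase on its template, had 1.42 and 1.03 in pRb/p107-null skin and -0.30 and -0.76 in p107-null skin (difference 1.75 ± 0.24, adjusted p = 0.137). Chaf1b, a subunit of the chromatin assembly factor, had 1.80 and 1.30 in pRb/p107-null skin against -0.97 and -0.44 in p107-null skin (difference 2.25 ± 0.32, adjusted p = 0.14). The maintenance DNA methyltransferase Dnmt1 differed by 1.66 ± 0.30 (adjusted p = 0.189). In all 3 the groups were apart, as with Prim1, and the adjusted p was above 0.05. The member most opposed to the list was Pold3, a polymerase subunit, at -1.19 ± 0.63 (adjusted p = 0.583).

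Licensing genes, which load the MCM helicase onto origins before S phase, gave a similar picture with 0 of 21 past the threshold. A positive difference was found in 17, and 16 had non-overlapping arrays with higher values in pRb/p107-null skin (76.2%, against 17.6% of all genes). The list's median was 1.37, or 1.71 relative to all genes. By array, the list's median z-score was 1.23 and 1.06 in pRb/p107-null skin and -0.15 and -0.22 in p107-null skin. Mcm5, a helicase subunit, had 1.23 and 1.41 in pRb/p107-null skin and -0.11 and -0.19 in p107-null skin (difference 1.46 ± 0.20, adjusted p = 0.136). Cdc6, a loader of the helicase, had 1.27 and 1.65 in pRb/p107-null skin and -0.25 and 0.26 in p107-null skin (difference 1.46 ± 0.25, adjusted p = 0.181). Mcm6 differed by 1.63 ± 0.33 and Gins1 by 1.70 ± 0.39, while Orc4 of the origin recognition complex had -0.91 ± 0.45. Most named members were thus higher in both pRb/p107-null arrays, and Orc4 was lower in both.

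**Figure D2:**
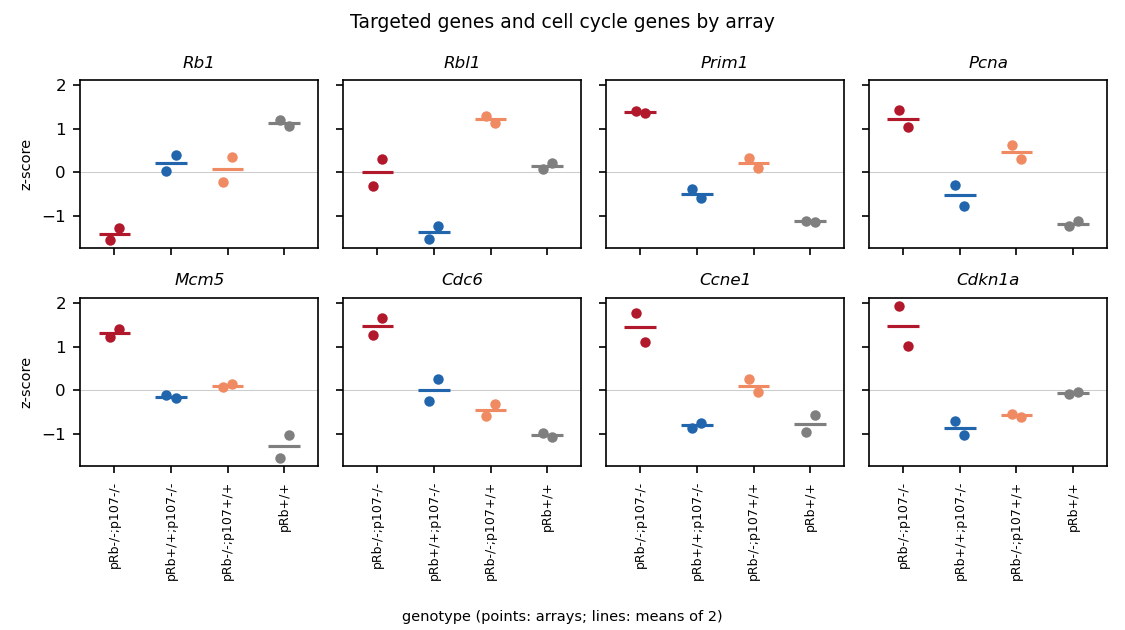
Each panel gives the z-score of 1 gene (vertical axis, SD units over 8 arrays) by genotype, with a point for each of the 2 arrays and a line at their mean. For Prim1, Pcna, Mcm5, Cdc6, Ccne1 and Cdkn1a the pRb-/-;p107-/- points lie above all others, for Rb1 below all others, and for Rbl1 the pRb+/+;p107-/- points are the lowest.

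Promoters are shown for genes that bear on the E2F link, from RefSeq on mouse build GRCm38.p6, 250 bases before to 50 after the annotated start, 5′ to 3′ on the gene's strand. Capitals mark matches to the E2F words TTTCGCGC, TTTGGCGC, TTTCCCGC or TTTGCCGC on either strand. Mcm5 (chr8:75109259-75109558, plus strand) and Cdc6 (chr11:98907901-98908200, plus strand) are the licensing genes with the clearest difference, Prim1 (chr10:128014965-128015264, plus strand) is the replication gene that passed, and Rbl1 (chr2:157204485-157204784, minus strand) was added after its values were seen.
Mcm5: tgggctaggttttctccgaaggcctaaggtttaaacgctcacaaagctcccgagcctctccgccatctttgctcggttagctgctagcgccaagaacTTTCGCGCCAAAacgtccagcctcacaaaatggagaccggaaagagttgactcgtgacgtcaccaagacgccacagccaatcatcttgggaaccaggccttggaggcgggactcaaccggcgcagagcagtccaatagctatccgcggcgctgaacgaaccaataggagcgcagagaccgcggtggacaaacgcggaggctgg
Cdc6: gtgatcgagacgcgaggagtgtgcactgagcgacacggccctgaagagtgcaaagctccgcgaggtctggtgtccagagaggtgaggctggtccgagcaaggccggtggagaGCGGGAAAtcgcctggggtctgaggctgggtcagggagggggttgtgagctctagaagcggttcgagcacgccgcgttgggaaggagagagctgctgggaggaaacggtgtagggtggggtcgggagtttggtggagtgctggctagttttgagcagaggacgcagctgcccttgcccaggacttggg
Prim1: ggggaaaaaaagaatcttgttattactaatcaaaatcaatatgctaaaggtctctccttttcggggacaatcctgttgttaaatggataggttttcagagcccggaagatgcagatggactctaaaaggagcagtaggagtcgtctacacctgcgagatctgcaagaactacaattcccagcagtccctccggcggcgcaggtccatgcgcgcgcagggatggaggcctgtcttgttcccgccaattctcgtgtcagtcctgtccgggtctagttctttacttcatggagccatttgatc
Rbl1: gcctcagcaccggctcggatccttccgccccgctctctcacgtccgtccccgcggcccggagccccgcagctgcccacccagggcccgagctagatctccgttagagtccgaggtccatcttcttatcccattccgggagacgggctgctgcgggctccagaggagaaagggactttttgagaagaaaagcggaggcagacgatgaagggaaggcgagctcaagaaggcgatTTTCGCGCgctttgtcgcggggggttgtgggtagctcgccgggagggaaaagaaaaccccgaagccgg
Mcm5 held 2 overlapping matches, which begin at positions -153 and -149 relative to the start, Cdc6 1 match at -138, and Rbl1 1 match at -18. None of the words was found in this stretch of Prim1. Pcna and Chaf1b, chosen together with Prim1, Mcm5 and Cdc6 by the size of their statistic, also held none, and their promoters are not shown. A word was present in 8 of 17 licensing promoters (47.1%) and in 8 of 28 promoters of DNA synthesis genes (28.6%). The share was 2.605% over all promoters of the table and 4.07% over the 9887 measured genes with a promoter. Without the 50 bases after the start, 6 licensing (35.3%) and 4 DNA synthesis promoters (14.3%) held a word, against 3.37% of these measured genes. Of the genes that passed the threshold, 0 of 29 higher and 0 of 10 lower genes with a promoter held one. A match describes letters and is not a shown binding site.

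Regulators of the cell cycle split in sign. Of 10 G1 and S phase cyclins and kinases, 0 passed the threshold and 4 of the differences were positive. Their median was -0.46, or -0.11 relative to all genes. The E-type cyclins, which drive entry into S phase and are E2F targets, lay higher: Ccne1 had 1.78 and 1.12 in pRb/p107-null skin and -0.86 and -0.74 in p107-null skin (difference 2.25 ± 0.29, adjusted p = 0.122). Ccne2 had 1.50 and 1.41 in pRb/p107-null skin and -0.90 and -0.83 in p107-null skin (difference 2.32 ± 0.44, adjusted p = 0.204). The D-type cyclins, which act upstream of pRb, had the opposite sign, at -0.71 ± 0.19 for Ccnd1, -1.33 ± 0.35 for Ccnd2 and -1.89 ± 0.62 for Ccnd3 (adjusted p = 0.299, 0.305 and 0.376). In each of these 5 cyclins the arrays of the 2 genotypes were apart.

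Among 7 inhibitors of cyclin-dependent kinases, again with 0 past the threshold, the 2 with the largest statistics differed in sign. Cdkn1a, which encodes p21, had 1.94 and 1.03 in pRb/p107-null skin and -0.70 and -1.01 in p107-null skin (difference 2.34 ± 0.34, adjusted p = 0.141). Cdkn1c, which encodes p57, had -0.73 and -1.21 in pRb/p107-null skin and 1.21 and 1.12 in p107-null skin (difference -2.14 ± 0.67, adjusted p = 0.363). Targets of p53 had a median of 0.23, or 0.58 relative to all genes, and 0 of 18 past the threshold. The nearest was Trp53inp1, a stress-induced p53 target, with 1.29 and 1.42 in pRb/p107-null skin and -0.97 and -1.51 in p107-null skin (difference 2.60 ± 0.21, adjusted p = 0.062). Ccng1, another such target, had the opposite sign (-0.70 ± 0.26).

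Of 47 genes of G2 phase and mitosis, 14 had non-overlapping arrays with higher values in pRb/p107-null skin (29.8%, against 17.6% of all genes) and 6 with lower (12.8%, against 34.1%). Their median was 0.22, or 0.57 relative to all genes, and 0 passed the threshold. Ncapg, a condensin subunit, differed by 2.18 ± 0.60 (adjusted p = 0.319) and Cks1b, a kinase subunit, by -2.03 ± 0.80 (adjusted p = 0.452). Repair and checkpoint genes had a median of 0.26 over 18, or 0.61 relative to all genes, led by the mismatch repair gene Msh6 at 2.35 ± 0.44 (adjusted p = 0.202).

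Ligands and feedback genes of the EGF receptor, which drives keratinocyte growth, gave 3 calls among 10 measured members, all higher in pRb/p107-null skin. Over all 12393 genes, 28 were called higher with 1 probe set a gene. Ereg, which encodes the ligand epiregulin, had 1.55 and 1.55 in pRb/p107-null skin and -0.89 and -0.78 in p107-null skin. It rose by 2.38 ± 0.11 (adjusted p = 0.0332). Betacellulin, a further ligand encoded by Btc, had 1.58 and 1.44 in pRb/p107-null skin and -0.47 and -0.42 in p107-null skin. The duplicate arrays of each genotype lay close together and the groups were far apart, for a rise of 1.96 ± 0.10 (adjusted p = 0.0396). Errfi1, a feedback inhibitor that is induced by the receptor and binds it, had 1.38 and 1.38 in pRb/p107-null skin and -1.20 and -1.27 in p107-null skin. Its rise of 2.61 ± 0.06 (adjusted p = 0.0167) came close to the limit of the scale, with the pRb/p107-null arrays highest and the p107-null arrays lowest of the 8.

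Another EGF receptor ligand, Epgn or epigen, was not on the list and is named after its values were seen; it rose by 2.36 ± 0.15 (adjusted p = 0.0457). Of the members that missed the threshold, Tgfa had 1.51 and 1.22 in pRb/p107-null skin and -1.06 and -0.92 in p107-null skin (difference 2.36 ± 0.40, adjusted p = 0.18), and the receptor relative Erbb3 differed by 2.46 ± 0.44 (adjusted p = 0.191). Lrig1, which restrains the receptor, was the 1 member with a negative difference (-0.83 ± 0.73). The list had a median of 1.88, or 2.23 relative to all genes. Across alternatives the relative median ranged from 0.98, with the mean over all single-gene probe sets, to 2.36. Where p107 was kept, the list's median was 0.43.

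Immediate early genes, which respond within minutes to growth factors and stress, had a median of 1.49 over 25, or 1.84 relative to all genes. A positive difference was found in 22 and non-overlapping, higher arrays in 19 (76.0%, against 17.6% of all genes). Ier3, an early response gene that affects cell survival, had 1.69 and 1.52 in pRb/p107-null skin and -0.42 and -0.53 in p107-null skin, and rose by 2.08 ± 0.08 (adjusted p = 0.0332). Just outside the threshold were Egr1, a zinc-finger factor, at 2.59 ± 0.18 (adjusted p = 0.0528) and the MAP kinase phosphatase Dusp1 at 2.22 ± 0.18 (adjusted p = 0.0631). Egr1 had 1.33 and 0.99 in pRb/p107-null skin against -1.46 and -1.40 in p107-null skin, so both genotypes lay at the ends of the range. Atf3 was the most opposed member (-1.68 ± 0.59, adjusted p = 0.402). By array, the list's median z-score was 0.68 and 0.77 in pRb/p107-null skin and -0.73 and -0.67 in p107-null skin, against values from -0.27 to 0.15 in the arrays with p107 kept. The pRb/p107-null arrays thus lay above those with p107 kept and the p107-null arrays below them.

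Of 26 genes of the granular layer and cornified envelope, which forms the outer barrier of the skin, 16 had non-overlapping, higher arrays in pRb/p107-null skin (61.5%, against 17.6% of all genes) and 7 lower (26.9%, against 34.1%). Their median was 1.01, or 1.36 relative to all genes. Of the probe sets that stood for these genes, 1 passed the threshold, that of Lce1i. The listed gene Elovl4 also passed, with a probe set that did not stand for it, and was higher (2.34 ± 0.11, adjusted p = 0.034). Lce1i, a late cornified envelope protein, fell: it had -1.59 and -1.53 in pRb/p107-null skin and 0.55 and 0.72 in p107-null skin (difference -2.20 ± 0.14, adjusted p = 0.0457). Lce1d of the same cluster had -2.29 ± 0.30 (adjusted p = 0.123), while Lce3c had 1.52 and 1.55 in pRb/p107-null skin and -0.03 and -0.29 in p107-null skin (difference 1.69 ± 0.22, adjusted p = 0.123). These 3 members thus did not share a sign, and probe sets ending in _x_at, as these do, can pick up related genes. Other members just short of the threshold were higher: repetin (Rptn) by 2.16 ± 0.19 (adjusted p = 0.0669), the protease Asprv1 by 1.66 ± 0.15 (adjusted p = 0.0679) and the kallikrein Klk7 by 2.48 ± 0.30 (adjusted p = 0.109).

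Some genes known from keratinocytes passed that are grouped here after their values were seen. Of these, Elovl4 is on the granular layer list and Ovol1 on that of hair follicle regulators. Elovl4, the elongase of very long fatty acids in barrier ceramides, had 1.39 and 1.28 in pRb/p107-null skin and -0.98 and -1.04 in p107-null skin with 1 of its 2 probe sets. It rose by 2.34 ± 0.11 (adjusted p = 0.034). The other probe set, which stood for Elovl4 in the granular layer list, had a difference of 2.48 (adjusted p = 0.124). Aqp3, the water and glycerol channel of keratinocytes, had 1.49 and 1.31 in pRb/p107-null skin and -0.47 and -0.52 in p107-null skin, a rise of 1.89 ± 0.09 (adjusted p = 0.0332). Slurp1, a secreted keratinocyte protein, had 1.38 and 1.37 in pRb/p107-null skin and -1.12 and -1.37 in p107-null skin, a rise of 2.62 ± 0.12 (adjusted p = 0.0332). In all 3 both pRb/p107-null arrays were the highest of the 8. Ovol1, a transcription factor of epidermal and hair follicle differentiation, rose by 2.37 ± 0.15 (adjusted p = 0.0457) and the keratin gene Krt77 by 2.15 ± 0.09 (adjusted p = 0.0332). Chosen after their values were seen, Sult2b1, the cholesterol sulfotransferase, rose by 2.58 ± 0.15 (adjusted p = 0.0457) and Ugcg, the glucosylceramide synthase, by 1.76 ± 0.12 (adjusted p = 0.0457). Spinous layer genes had a median of 1.01 over 14, or 1.36 relative to all genes, with 0 past the threshold. Krtdap, a keratinocyte differentiation marker, came nearest with 1.66 and 1.44 in pRb/p107-null skin and 0.01 and -0.38 in p107-null skin (difference 1.73 ± 0.20, adjusted p = 0.108). Basal keratinocyte genes had a median of -0.52 over 14, or -0.17 relative to all genes, and Itgb1, an integrin of basal cells, had -1.62 ± 0.38 (adjusted p = 0.258).

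Stress and hyperproliferation genes of keratinocytes gave 3 members that rose and 1 that fell among 26, against 28 and 12 of all 12393 genes. The small proline-rich gene Sprr2d, a cornified envelope precursor, had 1.57 and 1.50 in pRb/p107-null skin and -0.54 and -0.43 in p107-null skin, and rose by 2.02 ± 0.06 (adjusted p = 0.0263). Its relative Sprr2h rose by 2.23 ± 0.13 (adjusted p = 0.0457). Members of this family are alike in sequence, and their probe sets may share transcripts. Il1f9, an interleukin of the IL-1 family made by stressed epidermis, had 1.48 and 1.50 in pRb/p107-null skin and -0.14 and -0.08 in p107-null skin, and rose by 1.60 ± 0.10 (adjusted p = 0.0457). The keratin gene Krt6b, which is induced in wounds and hyperproliferative epidermis, went the other way. It had -0.97 and -1.05 in pRb/p107-null skin and 1.52 and 1.50 in p107-null skin, and fell (-2.52 ± 0.10, adjusted p = 0.0332). Its p107-null arrays were the highest of the 8, while the 4 arrays with p107 kept lay between -0.49 and 0.04. The antimicrobial lipocalin Lcn2 (2.14 ± 0.16, adjusted p = 0.0548) missed the threshold.

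Other genes that rose past the threshold are on none of the gene lists. The 2 smallest adjusted p-values were those of Rdh9, a retinol dehydrogenase, with 1.59 and 1.57 in pRb/p107-null skin and -0.76 and -0.89 in p107-null skin (rise of 2.40 ± 0.04), and of Calcb, which encodes a calcitonin gene-related peptide, with 1.67 and 1.57 in pRb/p107-null skin and -0.53 and -0.58 in p107-null skin (rise of 2.17 ± 0.04). Both had an adjusted p of 0.00822. For Calcb the other 6 arrays lay between -0.61 and -0.44, so the pRb/p107-null arrays stood alone. Tsc22d3, the glucocorticoid-induced leucine zipper, rose by 2.46 ± 0.10 (adjusted p = 0.0332). Atp1b1, a sodium pump subunit, had 0.89 and 0.88 in pRb/p107-null skin and -1.47 and -1.64 in p107-null skin (rise of 2.44 ± 0.11, adjusted p = 0.0332) with the 1 of its 5 probe sets that passed. The carboxypeptidase gene Cpd passed with 2 of its 5 probe sets, at 1.99 ± 0.07 and 1.65 ± 0.10. Cyp2b10, a cytochrome P450, rose by 2.12 ± 0.10 and the PDZ protein gene Sdcbp2 by 2.07 ± 0.10 (adjusted p = 0.0332 for each). Igfbp3, a binding protein for insulin-like growth factors, is on the list of the growth hormone and IGF axis. It was just outside at 2.05 ± 0.15 (adjusted p = 0.0543).

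Dermal genes lay lower in pRb/p107-null skin. Of 39 collagen and matrix genes, 34 had a negative difference and 2 fell past the threshold, against 7757 and 12 of all 12393 genes. Arrays did not overlap and were lower in 31 (79.5%, against 34.1% of all genes). Col5a1, a fibril-forming collagen chain, had -1.42 and -1.49 in pRb/p107-null skin and 0.99 and 1.18 in p107-null skin, and fell (-2.54 ± 0.13, adjusted p = 0.0396). Fbln2, which encodes the elastic fibre protein fibulin-2, had -1.33 and -1.68 in pRb/p107-null skin and 0.48 and 0.45 in p107-null skin, and fell (-1.97 ± 0.12, adjusted p = 0.0457). In both genes the pRb/p107-null arrays were the lowest of the 8. Col5a2 (-2.33 ± 0.35, adjusted p = 0.145), Fn1 (-1.38 ± 0.28) and Col1a1 (-2.07 ± 0.49) missed the threshold, and thrombospondin gene Thbs1 had the opposite sign (1.33 ± 0.33, adjusted p = 0.271). The list's median was -1.37, or -1.03 relative to all genes.

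With 1 probe set a gene, all 16 measured fibroblast markers had a negative difference and arrays that did not overlap, against 34.1% of all genes, though 0 passed the threshold. Another probe set of Col1a1 had the opposite sign. Their median was -1.54, or -1.20 relative to all genes, and by array it was -0.79 and -1.38 in pRb/p107-null skin and 0.93 and 0.51 in p107-null skin. Lumican (Lum), a dermal proteoglycan, had -1.24 and -1.44 in pRb/p107-null skin and 1.29 and 0.87 in p107-null skin (difference -2.42 ± 0.31, adjusted p = 0.12). The part of a smaller fibroblast share in the fall of Col5a1 and Fbln2 was not tested. Where p107 was kept, the fibroblast median was -0.15 and that of the matrix genes -0.04.

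Adipocyte markers had a median of -1.31 over 14, or -0.97 relative to all genes, with 0 past the threshold. Arrays did not overlap and were lower in 10 (71.4%, against 34.1% of all genes) and higher in 2 (14.3%, against 17.6%). Adiponectin (Adipoq), a hormone of fat cells, had -1.29 and -1.55 in pRb/p107-null skin and 0.41 and 0.36 in p107-null skin (difference -1.81 ± 0.18, adjusted p = 0.083). Ucp1, the uncoupling protein of brown fat, had the opposite sign (0.79 ± 0.29). With p107 kept, the adipocyte median was 1.08, and Adipoq had 0.93 and 1.30 in pRb-null skin against -0.20 and 0.04 in pRb+/+ skin. Scd1, the stearoyl-CoA desaturase of fat and sebaceous cells, fell past the threshold, with -1.40 and -1.44 in pRb/p107-null skin and -0.19 and -0.27 in p107-null skin (difference -1.20 ± 0.06, adjusted p = 0.0332). Its pRb/p107-null arrays were the lowest of the 8, and the p107-null arrays were the next lowest. Elovl1, another lipid enzyme, had the opposite sign (1.36 ± 0.10, adjusted p = 0.0522).

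**Figure D3:**
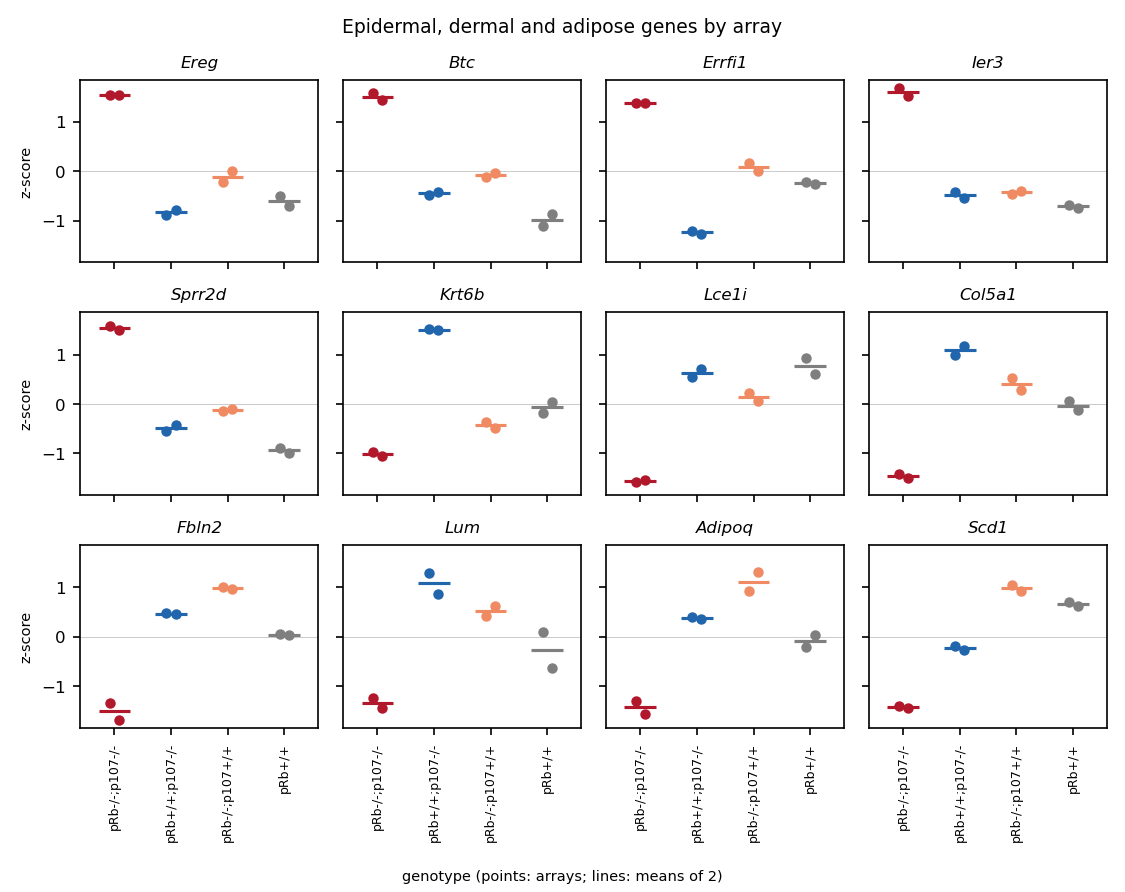
Each panel gives the z-score of 1 gene (vertical axis, SD units over 8 arrays) by genotype, with a point for each of the 2 arrays and a line at their mean. The pRb-/-;p107-/- points are the highest for Ereg, Btc, Errfi1, Ier3 and Sprr2d and the lowest for Krt6b, Lce1i, Col5a1, Fbln2, Lum, Adipoq and Scd1, while for Krt6b, Col5a1 and Lum the pRb+/+;p107-/- points are the highest.

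Muscle markers, which report the panniculus muscle taken with the skin, had a median of -0.32 over 28, near that of all genes. Myl1, a myosin light chain, had -1.56 ± 0.17 (adjusted p = 0.0915), and the myosin heavy chain gene Myh4 had the opposite sign (1.48 ± 0.36). Melanocyte markers had a median of -0.63 over 10, or -0.29 relative to all genes. Tyr, the pigment enzyme tyrosinase, fell with 1 probe set (-1.43 and -1.52 in pRb/p107-null skin, 0.06 and -0.17 in p107-null skin, adjusted p = 0.0495). Another of its probe sets had a difference of 0.72 ± 1.20, so the call rests on 1 of 3. Smooth muscle and pericyte markers had a median of -1.10 over 9, or -0.76 relative to all genes. The median z-score by array was -0.12 and -1.35 in pRb/p107-null skin, so 1 array set it. Medians relative to all genes lay between -0.34 and 0.28 for endothelial, macrophage, mast cell, neutrophil, lymphocyte, erythroid, melanocyte, Schwann cell, sebocyte, bone and skeletal muscle markers. Across alternatives they reached -0.96 for neutrophil, -0.90 for bone, -0.85 for sebocyte and 0.54 for mast cell markers. Of 7 sebocyte markers, 4 had the pRb/p107-null arrays lowest of the 8 (57.1%, against 11.5% of all genes) and 0 highest (against 7.6%). Scd1 was the 1 sebocyte marker that passed.

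Hair genes lay lower in both pRb/p107-null and p107-null skin than where p107 was kept. For 35 hair shaft keratins and keratin-associated proteins the median z-score by array was -1.05 and -1.01 in pRb/p107-null skin and -0.52 and -0.54 in p107-null skin. It was 0.30 and 0.29 in pRb-null skin and 1.28 and 1.32 in pRb+/+ skin. Arrays did not overlap and were lower in pRb/p107-null skin for 25 of the 35 (71.4%, against 34.1% of all genes), while 0 of the 35 passed the threshold. The median difference was -0.57, or -0.23 relative to all genes, and -0.97 where p107 was kept. Krtap6-5, a keratin-associated protein that is not on the list, fell, with -1.27 and -1.38 in pRb/p107-null skin and -0.26 and -0.35 in p107-null skin (difference -1.03 ± 0.05, adjusted p = 0.0393). The hair keratin gene Krt31 had -0.72 ± 0.07 (adjusted p = 0.0716), and Krtap13-1 was the most opposed member of the list (0.37 ± 0.09). Tnfrsf19, a TNF receptor relative expressed in hair follicles, also fell (-1.76 ± 0.08, adjusted p = 0.0332).

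Of the lists tied to hair follicle growth, those of Hedgehog, Wnt and Notch signalling held no gene past the threshold. The list of hair follicle regulators held 1, Ovol1, which rose by 2.37 ± 0.15 (adjusted p = 0.0457). The median of these regulators was -0.36 over 40, or -0.01 relative to all genes. Their arrays did not overlap and were lower in 19 (47.5%, against 34.1% of all genes) and higher in 6 (15%, against 17.6%). Hedgehog response genes had a median of -0.98 over 7, or -0.63 relative to all genes, and Hhip, a target that binds the ligand, had -1.05 and -1.25 in pRb/p107-null skin and 1.27 and 0.93 in p107-null skin (difference -2.25 ± 0.43, adjusted p = 0.204). Wnt response genes had a median of -1.002 over 15, or -0.66 relative to all genes. Notch genes had -0.56 over 18, or -0.22 relative to all genes, and 33.3% of them had lower, non-overlapping arrays, against 34.1% of all genes. For the Hedgehog and Notch lists the relative median changed sign under 1 of the alternatives, to 0.02 and 0.05. Notch2 had -1.51 ± 0.25 (adjusted p = 0.17). Lrp4, a co-receptor that restrains Wnt signalling and is not on these lists, fell past the threshold (-1.55 and -1.51 in pRb/p107-null skin, 0.75 and 0.40 in p107-null skin, difference -2.11 ± 0.13, adjusted p = 0.0457).

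Genes of oxidative phosphorylation had a median of -1.22 over 61, or -0.88 relative to all genes. Arrays did not overlap and were lower in 42 (68.9%, against 34.1% of all genes), and 0 passed the threshold. By array the median was -0.54 and -1.34 in pRb/p107-null skin and 0.31 and 0.32 in p107-null skin. Sdhd, a subunit of complex II, had -1.70 ± 0.24 (adjusted p = 0.138), whereas Ndufa4 was higher in pRb/p107-null skin (2.42 ± 0.29, adjusted p = 0.11). Timm22, of the protein import machinery of mitochondria, fell (-2.21 ± 0.11, adjusted p = 0.0391). Pdk4, a kinase that shuts off pyruvate use in mitochondria and was chosen after its values were seen, rose (2.60 ± 0.17, adjusted p = 0.0486). Ribosomal protein genes had a median of -0.70 over 41, or -0.35 relative to all genes, with 1 call, Rpl37a, at -1.54 and -1.54 in pRb/p107-null skin and 0.86 and 0.63 in p107-null skin (difference -2.29 ± 0.14, adjusted p = 0.0457). Ribosomal protein genes have many near-identical copies, so its signal is uncertain. The SD of its pRb/p107-null arrays was 0, so that group added nothing to the residual spread behind the call. The other 2 probe sets of Rpl37a had differences from -1.38 to -0.66, with adjusted p from 0.689 to 0.733 in the linear model. Among axis genes of growth hormone and IGF, with a median of -0.84 over 15, or -0.50 relative to all genes, the receptor gene Ghr had -1.60 ± 0.24 (adjusted p = 0.141). Igfbp3 of the same list came nearest the threshold and had the opposite sign (2.05 ± 0.15, adjusted p = 0.0543).

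The remaining genes that fell are of mixed function. Aplnr fell past the threshold of the linear model with 1 of its 2 probe sets (difference -1.65 ± 0.11, adjusted p = 0.0498). Dpysl3, a cytoskeletal protein of growing neurites, fell by 1.67 ± 0.08 (adjusted p = 0.0332) and the receptor phosphatase gene Ptprd by 1.56 ± 0.10 (adjusted p = 0.0462). Iapp, which encodes islet amyloid polypeptide, fell by 1.93 ± 0.12 (adjusted p = 0.0457) and the secreted protein gene Wfdc21 by 1.93 ± 0.12 (adjusted p = 0.0457).

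**Figure D4:**
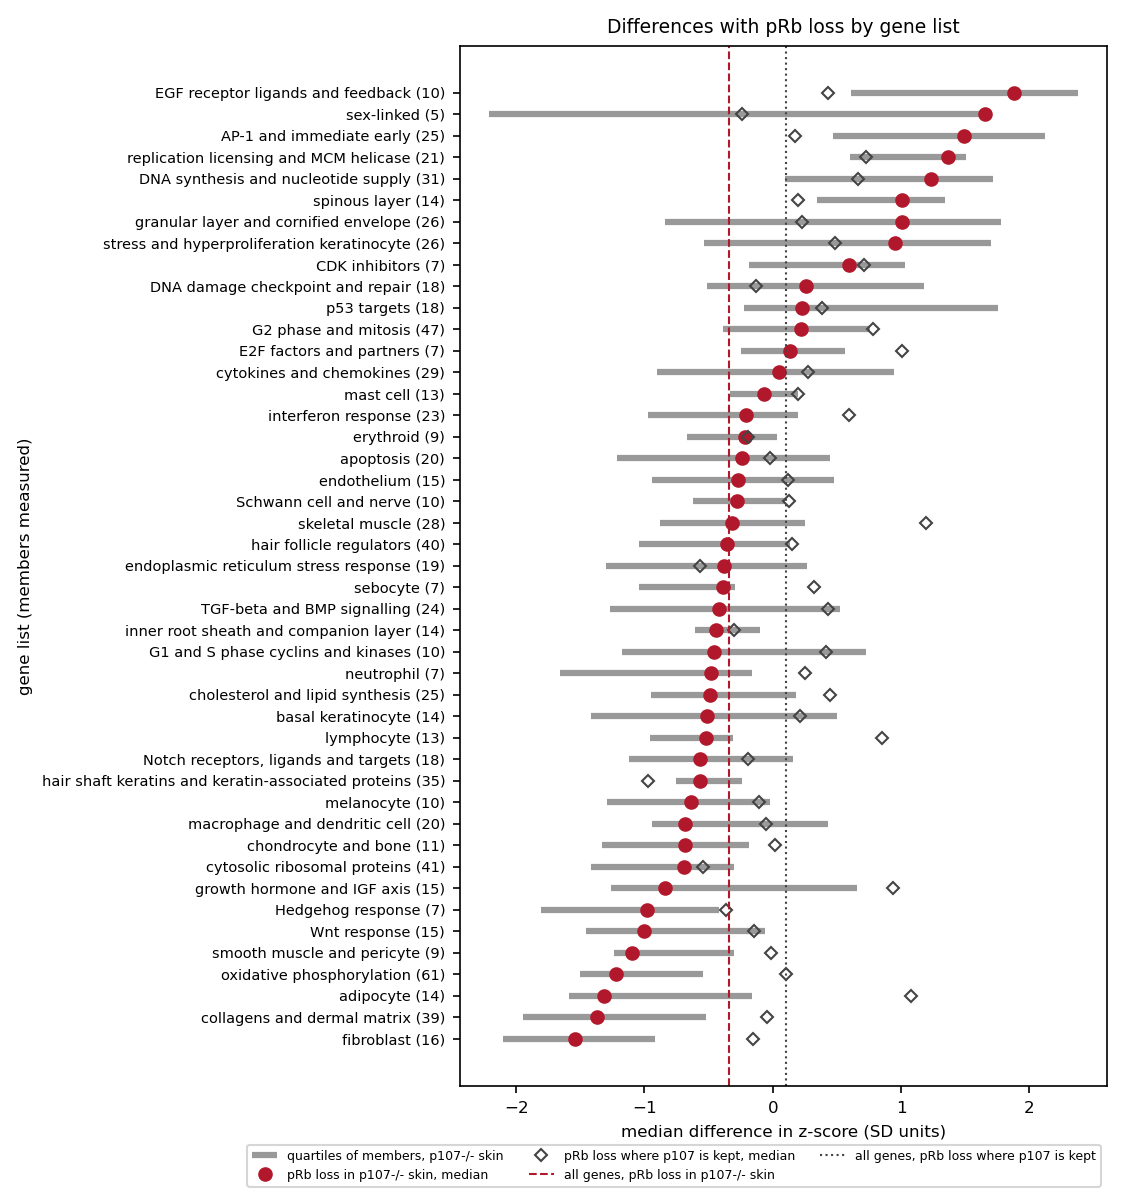
For each gene list (rows, with the number of members measured; lists of 5 or more), the filled circle gives the median z-score difference with pRb loss in p107-/- skin, the grey bar the range between the quartiles of the members and the open diamond the median where p107 was kept; the lines mark all genes. EGF receptor, immediate early, replication and differentiation lists lie to the right of the all-gene median of -0.34, and fibroblast, matrix, adipocyte and oxidative phosphorylation lists to the left.

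Whether the differences with pRb lost depend on p107 was examined against the pair in which p107 was kept, pRb-null minus pRb+/+. The 2 comparisons share no array, but each probe set's scores share 1 scaling over all 8. Where p107 was kept, 0 of 22626 probe sets passed the threshold (0%; smallest adjusted p = 0.0517) in limma's linear model, with 3026 at an unadjusted p below 0.05. Without p107, 2711 were at that level. Of the 40 probe sets called higher without p107, 33 also had a positive difference where p107 was kept, and of the 18 called lower, 9 had a negative one. Over all genes, 6623 of 12393 were positive there. Prim1 had a positive difference in both, 1.88 ± 0.11 without p107 and 1.34 ± 0.11 where p107 was kept, and Ptprd a negative one in both, -1.56 ± 0.10 and -1.59 ± 0.10. Aqp3 had 1.89 ± 0.09 without p107 and 1.32 ± 0.09 where p107 was kept. For Errfi1 the value where p107 was kept was 0.33 ± 0.06, for Ier3 0.28 ± 0.08, for Calcb -0.14 ± 0.04 and for Col5a1 0.43 ± 0.13. These 4 were far smaller in size there than without p107.

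**Figure D5:**
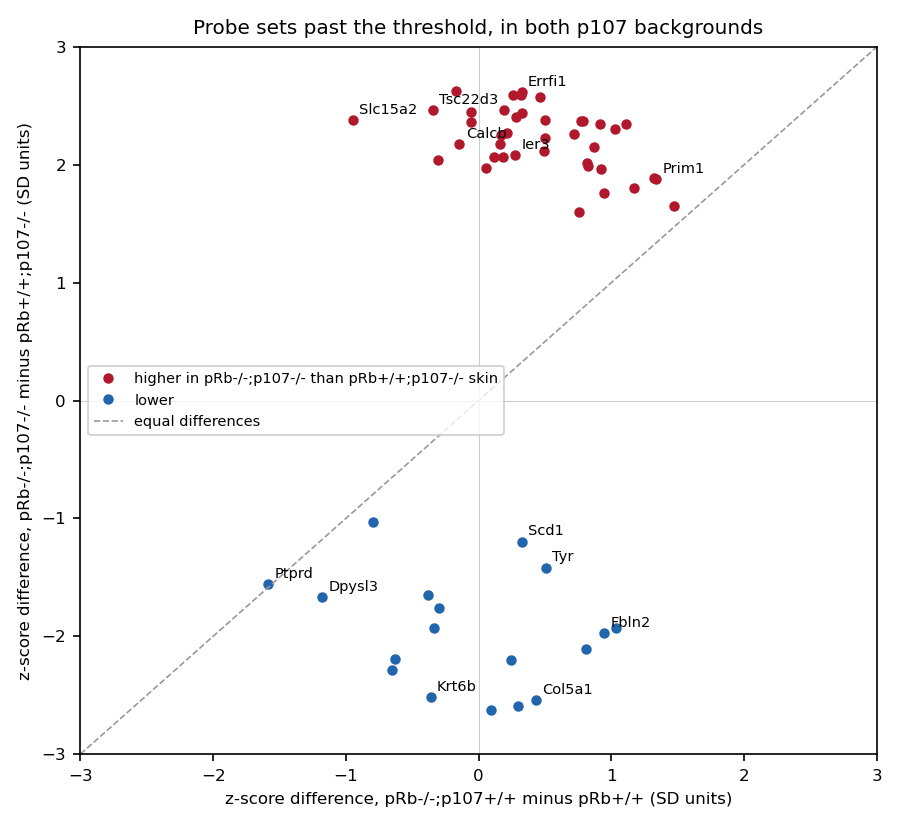
Each point is 1 of the 58 probe sets past the threshold in p107-/- skin, with its z-score difference for pRb loss in p107-/- skin on the vertical axis and where p107 was kept on the horizontal axis (SD units; red higher, blue lower in pRb-/-;p107-/- than in pRb+/+;p107-/- skin). Most points lie farther from 0 vertically than horizontally, which the choice by the vertical axis favours, and Ptprd lies near the dashed line of equal differences.

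The test of the difference itself, the interaction of pRb and p107 loss, called 0 of 22626 probe sets (0%) in limma's linear model and 0 with its moderated test, with 2964 and 2969 at an unadjusted p below 0.05. The smallest adjusted p was 0.0502, for Calcb and Rdh9. Calcb had an interaction of 2.32 ± 0.06 and Rdh9 of 2.12 ± 0.06. Ranked by the statistic among probe sets with 1 gene symbol, the next positive ones were Errfi1 (2.29 ± 0.09), Tsc22d3 (2.81 ± 0.14) and Prps1l3 (1.85 ± 0.10), all with an adjusted p of 0.0765. For Prps1l3 the pRb+/+ arrays stood alone, with 1.59 and 1.62 there and values from -0.77 to -0.40 in the other 6. The 5 negative ones with the largest statistics among these probe sets were the muscle enolase gene Eno3 (-2.79 ± 0.11), Tmem144 (-2.84 ± 0.13), the desmosomal cadherin gene Dsc3 (-2.54 ± 0.12), Rnf114 (-3.09 ± 0.16) and Scd1 (-1.52 ± 0.08), again at 0.0765. For Eno3 and Tmem144 the pRb-null arrays were the highest of the 8, and the difference was larger in the pair with p107 kept. Scd1 was low in the pRb/p107-null arrays, with -1.20 ± 0.06 without p107 against 0.33 ± 0.06 where p107 was kept.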

How the data were processed

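Expression was measured on Affymetrix arrays hybridized with biotin-labelled RNA of whole newborn FVB skin, each array with a pool of 3 animals. Per the submitters' processing notes the arrays were processed with RMA, a method of background correction, quantile normalization and probe summary. No version is given. The value deposited by the authors is a standardized score with mean 0 and SD 1 per probe set over the 8 arrays. No label records this step, and the labels do not say whether log or linear values were standardized. Signal over background cannot be read from scores, and the number of arrays limits the precision.

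The sample titles gave groups and replicate numbers and do not say whether the 2 arrays of a genotype are separate pools. P-values therefore measure the spread between these arrays, which may be technical. A linear model with 1 coefficient per genotype was fitted to all 8 arrays (4 residual degrees of freedom) with limma 3.58.1 in R 4.3.3. Its unmoderated test was used because standardizing a probe set leaves its result the same. Benjamini-Hochberg adjustment ran over 22626 probe sets, leaving out 64 control probe sets, with a threshold of 0.05. With 2 arrays against 2, an exact two-sided permutation test of a single gene cannot go below p = 0.333. The procedure was tested on simulated data.

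Gene names came from the platform annotation: 20380 had 1 gene symbol, 691 several and 1555 none. In gene lists 1 probe set stood for each of 12393 genes, preferring names ending in _at, then _a_at, _s_at and _x_at, then the lowest number. Named genes are the targeted genes, the 15 called genes with the largest statistic in each direction, up to 4 members of a list with its most opposed member, and the 5 largest interactions in each direction. The members and lists were chosen with earlier results of these data known. Differences between arrays 1 and 2 of a genotype correlated at r = -0.0019 between pRb-/-;p107-/- and pRb+/+;p107-/- skin. For the other pairs of genotypes r lay between -0.131 and 0.105. The numbers were not used to pair the arrays in the main fit, and these values do not show whether they mark a batch. Alternatives were the moderated test, quantile normalization, subtraction of array medians, a replicate block, single-gene probe sets only, the 4 p107-/- arrays only, each array left out, the mean over probe sets of a gene, and promoters without the 50 bases after the start. Promoters came from RefSeq (GRCm38.p6).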

Additional observations from a re-analysis of the deposited data

How the results depend on the processing

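For pRb loss in p107-/- skin, the 58 calls became 0 with limma's moderated test, 0 with the replicate block, 0 with the 4 p107-/- arrays only and 2 with array medians subtracted, of which 1 was among the 58. Quantile normalization gave 77, of which 31 were shared, and single-gene probe sets 53. Leaving out 1 array gave 0 to 2 calls: 0 when a pRb-/-;p107-/- array was missing, 1 when it was a pRb+/+;p107-/- or a pRb+/+ array and 2 when it was a pRb-/-;p107+/+ array, with at most 1 of the 58 among them. Fewer arrays leave fewer degrees of freedom, and the cause was not tested for the other alternatives. All 742 values of called genes under alternatives kept their sign. Only quantile normalization and subtraction of array medians could have reversed it. The other alternatives keep the difference, or drop an array where the 2 groups did not overlap. The 53 calls with single-gene probe sets come from a setting that only leaves other probe sets out of the adjustment. The replicate numbers were also fitted as a block where p107 was kept, with 1 call, and for the interaction, with 0 calls. Where p107 was kept the count of 0 became 5 with single-gene probe sets and 0 to 4 with 1 array left out. The interaction's 0 became 2 with single-gene probe sets and 0 to 1 with 1 array left out. Of 46 gene lists, 22 had a median above that of all genes, and 21 to 24 under the alternatives. The sign relative to all genes changed for 18 lists under at least 1 alternative, among them Hedgehog response (from -1.06 to 0.02) and smooth muscle and pericyte (from -0.92 to 0.22), and not for the replication, licensing, EGF receptor, immediate early, spinous, granular, stress, matrix, fibroblast, adipocyte or oxidative phosphorylation lists. Promoters of E2F, licensing and DNA synthesis genes with a motif numbered 18, and 12 without the bases after the start. Depth cannot be judged, because scores carry no signal over background.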
